A study of Mus musculus with 8 samples.

Results

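The miR-193 and miR-365 clusters are paired miRNA loci, each of which holds 1 miR-193 hairpin and 1 miR-365 hairpin. Their products were followed in the liver of mice fed without methionine and choline (the MCD diet, used to model steatohepatitis), and in that of mice fed a normal diet (control). The members were taken by probe name, as all probes for miR-193, miR-193b or miR-365 of either hairpin arm. There were 7 of them among the 1135 miRNA probes of the array: the guide strands miR-193, miR-193b and miR-365 and the passenger strands miR-193*, miR-193b*, miR-365-1* and miR-365-2*. A guide strand is the arm of the hairpin that is usually loaded into the silencing complex, and the starred passenger strand is usually degraded.

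The samples were 4 livers on the MCD diet and 4 on the control diet, each hybridised to 1 array. All mice were male C57BL/6N, 8 weeks old at the start of feeding, with no transgene or drug. The deposited labels give 23 weeks of diet for both groups, whereas the methods describe a shorter feeding. The labels number the livers but name no mice, so the tests rest on the spread among these 4 arrays per diet, which may be technical.

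miRNAs pair with target mRNAs mainly through the seed, bases 2 to 8 from the 5′ end, and lower the output of those mRNAs. The miR-193 family is known for restraining proliferation in human cancer cells, where targets such as cyclin D1, MCL1 and urokinase have been described. The miR-193b and miR-365 cluster was found to be enriched in mouse brown adipose tissue, and miR-365 has been linked to cyclin D1 and interleukin-6 in human cells. None of these targets was measured here.

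The mature sequences show why miR-193 and miR-193b form 1 family and miR-365 another, and all 7 probes could be matched to RefSeq entries (GRCm38.p6). The guides are printed 5′ to 3′ with the seed in capitals:
miR-193 (miR-193a-3p): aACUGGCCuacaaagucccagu
miR-193b (miR-193b-3p): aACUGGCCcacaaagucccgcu
miR-365 (miR-365-3p): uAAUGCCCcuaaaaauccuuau
The seed ACUGGCC was held by 2 mature mouse miRNAs of the table, miR-193a-3p and miR-193b-3p themselves, and AAUGCCC by miR-365-3p alone. Between the 22-base miR-193 guides, 19 bases were the same, and the differences from miR-193a-3p to miR-193b-3p were U9C, A20G and G21C, counted from the 5′ end. The probe sequences were not used here, and how far each of the 2 probes reads the other miRNA was not tested.

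The passenger strands are shown likewise, because they are the only products on the array that tell the 2 miR-365 hairpins apart:
miR-193* (miR-193a-5p): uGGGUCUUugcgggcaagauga
miR-193b* (miR-193b-5p): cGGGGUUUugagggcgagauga
miR-365-1* (miR-365-1-5p): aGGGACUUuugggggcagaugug
miR-365-2* (miR-365-2-5p): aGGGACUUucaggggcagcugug
From miR-365-1* to miR-365-2* the differences were U10C, G11A and A19C, with 20 of 23 bases the same. The miR-365 guide is the same in both hairpins, so its probe reads the sum of both loci and cannot give the share of either.

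In the mouse genome the loci lie on 2 chromosomes. Mir193a (chr11:79711969-79712034, plus strand) is followed after 14365 bases by Mir365-2 (chr11:79726400-79726511, plus strand), and neither hairpin overlapped another gene of the annotation. Mir193b (chr16:13449523-13449601, plus strand) is followed after 4238 bases by Mir365-1 (chr16:13453840-13453926, plus strand), and both lie within the spans of the long non-coding genes Gm32817 and Gm53058. Whether they are exonic or intronic there was not analysed here. The hairpins are shown with the 2 mature arms in capitals, the starred arm first:
Mir193a: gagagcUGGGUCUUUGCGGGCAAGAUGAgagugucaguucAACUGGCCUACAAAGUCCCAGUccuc
Mir365-2: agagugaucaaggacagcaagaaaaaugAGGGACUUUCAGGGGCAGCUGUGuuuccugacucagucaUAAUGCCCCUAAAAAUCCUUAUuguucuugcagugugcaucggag
Mir193b: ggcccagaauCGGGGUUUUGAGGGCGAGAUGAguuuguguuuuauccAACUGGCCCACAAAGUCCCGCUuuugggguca
Mir365-1: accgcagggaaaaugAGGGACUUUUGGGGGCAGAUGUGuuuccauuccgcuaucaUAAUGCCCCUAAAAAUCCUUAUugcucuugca

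The arrays give an intensity per spot in scanner units. A spot was taken as above the blank limit where it exceeded the mean of the blank spots by 2 SD, which lay between 232.8 and 248.2 on MCD arrays and between 239.9 and 261.1 on control arrays. The limit set in the same way from negative control spots lay between 250.1 and 288.9 on MCD arrays and between 285.7 and 293.2 on control arrays. All MCD arrays were read in the array position that the files call cell 2 and all control arrays in cell 1, and the median local background was 123 to 140 units on MCD arrays and 144 to 158 on control arrays. Position, background and diet therefore cannot be told apart. mmu-miR-122, the defining miRNA of hepatocytes, had 17471 ± 1980 units in MCD and 36990 ± 4382 in control (SD, n = 4), far above these limits.

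All 3 guide strands were lower in MCD liver and the 4 passenger strands did not pass the test (limma on normalized log2 values, adjusted over 1076 tested probes, threshold 0.05). All 7 members passed the filter on dim probes. Over all tested probes 4.46% were lower and 5.76% higher at this threshold, 10.2% in all, so 3 of 7 members lower and 0 higher compares with 48 lower and 62 higher of 1076. The median change was -0.25 on the log2 scale over the 7 members and -0.01 over all tested probes. A fall in bulk liver can come from fewer cells of a type or from less RNA per cell, and these cannot be told apart here.

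mmu-miR-193, the guide of the chromosome 11 locus, showed the largest change of the 7. Its spot intensities were 304, 282, 300 and 284 units on the MCD arrays, against 578, 493, 454 and 475 on the control arrays. The lowest control spot was thus well above the highest MCD spot. All 8 spots exceeded the blank limit, whereas the negative control limit was exceeded on 3 of 4 MCD arrays and 4 of 4 control arrays. After background correction and normalization miR-193 averaged 7.28 ± 0.11 in MCD and 8.57 ± 0.04 in control on the log2 scale (SD, n = 4). The change was -1.29 ± 0.09 (SE, limma adjusted p = 6.68e-06), a 2.45-fold lower level in MCD, with a 95% interval from -1.49 to -1.09. Only 4 of the 1076 tested probes had a larger fall. The size of the fall depended on how background was treated, at -0.83 with none subtracted and -1.99 after subtraction of the blank mean, and the call was kept in each of the 19 other settings and without any 1 array.

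mmu-miR-193b, the family member from chromosome 16, had a smaller change. Its spots were at 252, 260, 278 and 274 units in MCD, against 346, 302, 307 and 324 in control. The groups did not overlap, but the MCD spots lay close to background, with 1 of 4 above the negative control limit and 4 of 4 control spots above it. The normalized level was 7.07 ± 0.08 in MCD and 7.54 ± 0.10 in control (SD, n = 4), a change of -0.47 ± 0.09 (SE, limma adjusted p = 0.00533) with a 95% interval from -0.68 to -0.27. The change was -0.27 with no background subtracted, -1.02 after blank subtraction and -0.95 on the authors' processed values, and it passed the threshold in all of these and without any 1 array.

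mmu-miR-365, the shared guide of both clusters, was at 247, 274, 295 and 297 units in MCD and at 327, 307, 318 and 334 in control. Again the highest MCD spot stayed below the lowest control spot, and 2 of 4 MCD spots against 4 of 4 control spots exceeded the negative control limit. The normalized level was 7.25 ± 0.17 in MCD and 7.63 ± 0.12 in control (SD, n = 4). The change was -0.39 ± 0.11 (SE, limma adjusted p = 0.0380), with a 95% interval from -0.63 to -0.15. This call was near the threshold. It ended in 8 of 19 other settings, among them global median scaling (-0.30, adjusted p = 0.119) and blank subtraction (-0.77, adjusted p = 0.121). It also ended without MCD 1, 2 or 3 or control 1, 3 or 4 (adjusted p from 0.0682 to 0.132), with changes from -0.46 to -0.31 over the 8 fits that left out 1 array.

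For each of the 3 guides the 4 MCD values lay wholly below the 4 control values after normalization, which held for 6.23% of all tested probes (wholly above for 8.83%, no overlap in either direction for 15.1%). None of the 4 passenger strands was separated. In the deposited processed table, a second version of the same arrays scaled by the authors, the separation was also complete for each of the 3 guides. There miR-193 had 99.2, 63.7, 75.6 and 64.8 processed units in MCD, against 344.5, 302.0, 220.6 and 250.1 in control. The table gave miR-193b 42.0 to 57.4 units in MCD and 84.7 to 118.2 in control, and miR-365 43.0 to 77.1 units in MCD and 93.3 to 111.7 in control.

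**Figure D1:**
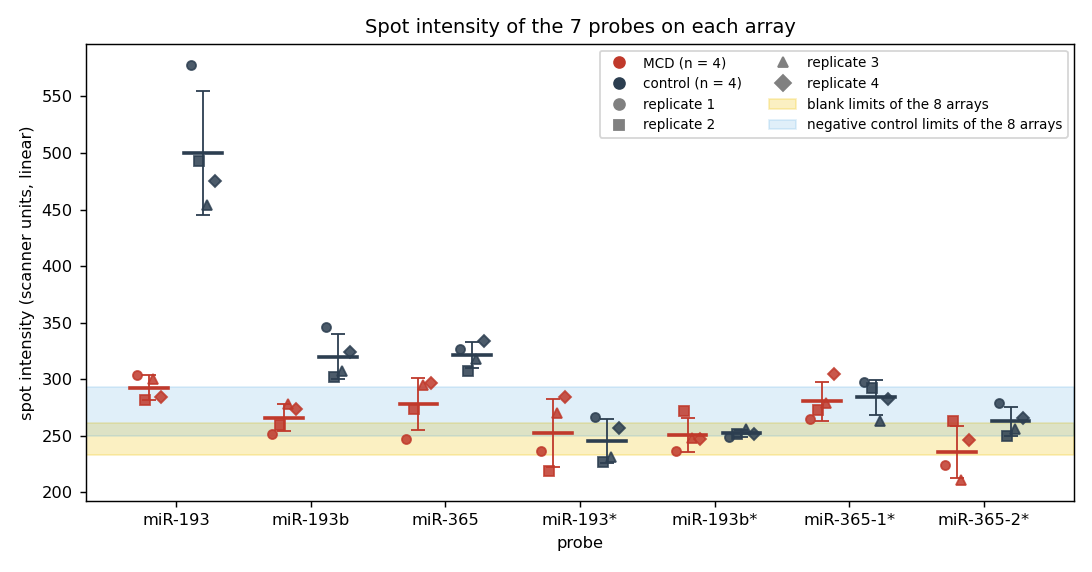
Spot intensity (scanner units, linear axis that does not start at 0) of the 7 probes, with 4 MCD arrays to the left of 4 control arrays for each probe, bars for the mean and whiskers for the SD, and bands for the range of the blank and negative control limits over the 8 arrays. The control spots of miR-193 run from 454 to 578 units and stand clear of both bands, whereas its MCD spots at 282 to 304 units and all passenger spots lie in or near them.

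The passenger strands stayed near background in both diets. miR-193* was at 237, 219, 270 and 284 units in MCD and at 267, 227, 231 and 257 in control, so the groups overlapped, with a change of 0.18 ± 0.19 (SE, limma adjusted p = 0.656). It exceeded the blank limit on 3 of 4 MCD and 2 of 4 control arrays and the negative control limit on none of the 8. miR-193b* had a change of 0.05 ± 0.10 (adjusted p = 0.839), with spots from 237 to 272 units in MCD and from 249 to 256 in control. The interval of the change was -0.23 to 0.59 for miR-193* and -0.17 to 0.26 for miR-193b*, so a fall of the size seen for miR-193 lay outside the first, and one of the size seen for miR-193b outside the second. These intervals apply to spots whose signal is largely background, where the offset used in the correction pulls changes towards 0. After blank subtraction miR-193* was at 0.14 ± 1.25 (SE), too wide to exclude the -1.99 of miR-193 in that setting. There miR-193b* was at 0.23 ± 0.28, against -1.02 for miR-193b.

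The 2 passenger strands of miR-365 come from 1 locus each. They share 20 of 23 bases, and how far each probe reads the other strand was not tested. miR-365-1*, from chromosome 16, was the 1 passenger strand that exceeded the blank limit on all 8 arrays. Its spots were at 265, 273, 279 and 305 units in MCD and at 298, 292, 263 and 283 in control, and the change was 0.04 ± 0.11 (SE, limma adjusted p = 0.910). miR-365-2*, from chromosome 11, was at 224, 263, 211 and 246 units in MCD and at 279, 250, 256 and 266 in control. Its change was -0.25 ± 0.14 (adjusted p = 0.332), with a 95% interval from -0.54 to 0.05, and it exceeded the blank limit on 2 of 4 MCD and 3 of 4 control arrays. It was at -1.57 after blank subtraction (adjusted p = 0.464), -0.47 with spike scaling (adjusted p = 0.0514), -0.11 with no background correction and -0.11 without MCD 3. Neither passed the test, so the arrays do not assign the fall of the shared guide to 1 of the 2 loci. When spike control spots set the scale, the changes of miR-193*, miR-193b* and miR-365-1* turned to -0.05, -0.19 and -0.22. That scaling moved the median of all tested probes to -0.24.

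**Figure D2:**
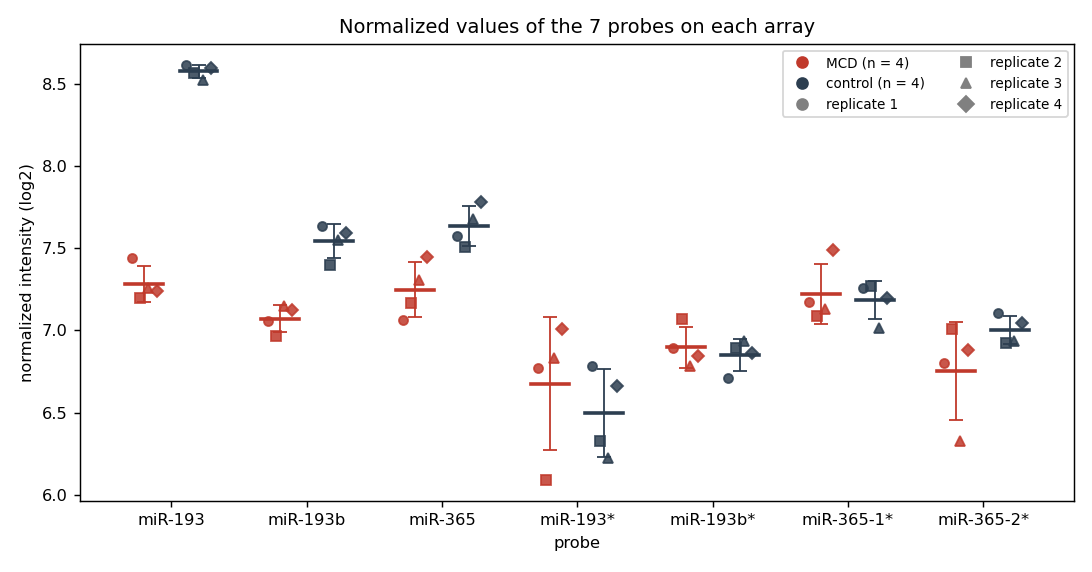
Normalized intensity (log2) of the 7 probes on each array, 4 MCD arrays to the left of 4 control arrays, with bars for the mean and whiskers for the SD. The groups are apart for miR-193 (7.28 in MCD and 8.57 in control), miR-193b and miR-365, and overlap for the 4 passenger strands.

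**Figure D3:**
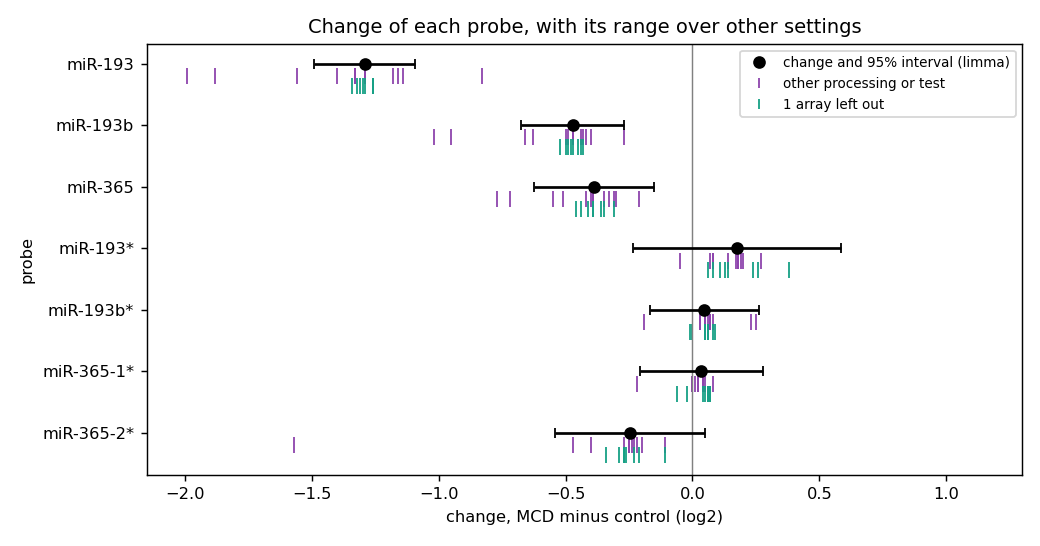
Change of each probe (MCD minus control, log2) with its 95% interval from limma, the values under the other processing settings or tests, and those with 1 array left out. All values for miR-193, miR-193b and miR-365 lie below 0, with miR-193 between -1.99 and -0.83, and those of the passenger strands miR-193*, miR-193b* and miR-365-1* fall on both sides of 0.

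Whether the members changed by unequal amounts was tested on the ratio of 2 probes within each array, with an exact two-sided permutation test over the arrays. The smallest p it can give is 0.0286. The 7 of the 10 pairs compared that reached it have an adjusted p of 0.0408, a value that depends on how many other pairs reach it too (0.0400 over the 7 pairs without miR-122). The log2 ratio of miR-193 to miR-193b was 0.11 to 0.39 on MCD arrays and 0.97 to 1.17 on control arrays, and the ratio of miR-193 to miR-365 was -0.21 to 0.38 on MCD arrays and 0.82 to 1.06 on control arrays. Hence miR-193 fell by 0.82 more than miR-193b and by 0.90 more than miR-365 on the log2 scale (exact permutation adjusted p = 0.0408 for both). The mean spots of miR-193, miR-193b and miR-365 were 500, 319.75 and 321.5 units in control and 292.5, 266 and 278.25 in MCD. Since the MCD spots lay near background, a probe that was dimmer in control had less room to fall. The share of this in both differences was not tested. With 1 array left out both differences stayed at the smallest p (0.0286), with no overlap in any of the 8 fits, at -0.85 to -0.78 and -0.99 to -0.83. The adjusted p was then 0.0571 without MCD 4 or any 1 control array, because fewer of the other pairs were at the smallest p, and it says nothing about these 2. The difference from miR-193b stayed there in all 10 other settings (-0.97 to -0.57). That from miR-365 did so in 9 (-1.22 to -0.62 over all 10), and on the authors' values the groups overlapped (-1.16, exact permutation p = 0.0571). These counts include global median, percentile, spike and no scaling, which shift all probes of an array alike and leave every ratio unchanged. They gave the same -0.74 and -0.84 and are no separate checks, here and for the other pairs.

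The same test between miR-193b and miR-365 did not pass. Their log2 ratio was -0.33 to -0.01 on MCD arrays and -0.19 to 0.06 on control arrays, a difference of -0.08 (exact permutation adjusted p = 0.381), and it lay between -0.25 and -0.05 in the 10 other settings. The 2 miRNAs are products of 1 chromosome 16 cluster, though miR-365 also comes from chromosome 11.

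Guides and passengers were compared in the same way. The guide fell by more than its passenger for miR-193 (difference -1.47), for miR-193b (-0.52) and for miR-365 against miR-365-1* (-0.42), each with an exact permutation adjusted p = 0.0408 and no overlap of the groups. Against miR-365-2*, from chromosome 11, the difference was -0.14 (adjusted p = 0.514), and the groups overlapped. A ratio to a passenger probe that reads mostly background follows the guide, so these values show unequal change of the 2 spots only. For miR-193 the groups overlapped after blank subtraction (-2.13, exact permutation p = 0.200), and they were apart in the 8 other settings that gave a value and with any 1 array left out (-1.63 to -1.36). The difference of miR-193b stayed at the smallest p in all 10 other settings (-1.25 to -0.30) and with any 1 array left out. These counts of settings also include the scalings that leave a ratio unchanged, which are no separate checks. For miR-365 against miR-365-1* the groups stayed apart with any 1 array left out (-0.50 to -0.36) and overlapped on the authors' values (-0.76, exact permutation p = 0.0571).

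Several other miRNAs of hepatocytes were lower too. Of 12 hepatocyte probes, 6 were lower in MCD, 0 were higher and 6 did not pass, with a median change of -0.33. The shares over all tested probes were 4.46% lower and 5.76% higher. miR-122 fell by 0.83 on the log2 scale, with spots of 14535 to 18846 units in MCD and 30938 to 40551 in control, miR-194 fell by 0.65, and miR-192 by 0.61 with overlapping groups and a call that ended in 3 of 19 other settings and in 6 of the 8 fits that left out 1 array. After blank subtraction miR-122 (-0.84, limma adjusted p = 0.0553) and miR-194 (-0.68, adjusted p = 0.0831) missed the threshold as well, and with spike scaling miR-122 was at -1.31. The list count was 1 after blank subtraction and 3 without control 1, 2 or 4. The summed level of the list was 15.08 to 15.32 in MCD and 15.77 to 15.87 in control (log2). Such sums were taken on the linear scale, so the brightest probe, miR-122 (mean 14.15 in MCD and 14.98 in control), weighs most in this one. Against miR-122, the fall of miR-193 differed by -0.46 (exact permutation adjusted p = 0.179), that of miR-193b by 0.36 and that of miR-365 by 0.44 (adjusted p = 0.0408 for both). Quantile scaling gave miR-122 1 value on all 4 control arrays, where it held the same rank, and the sizes depended on the processing. Global median, 75th percentile, spike and no scaling give a ratio the same value, so they count as 1 setting here. For miR-193 the difference was -0.09 with global median, 75th percentile, spike or no scaling, -0.21 with cyclic loess, 0.00 with no background correction, -0.73 with the smaller normexp offset and -1.16 after blank subtraction. For miR-193b it was 0.65 and for miR-365 0.76 with global median, 75th percentile, spike or no scaling, and 0.69 and 0.77 with cyclic loess, all past the threshold. Both also passed it with no background correction, at 0.56 and 0.61. The differences were 0.20 and 0.33 with the smaller offset, 0.24 and 0.46 on the authors' values and -0.18 and 0.06 after blank subtraction, none past the threshold. The MCD spots of miR-193b and miR-365 lay near background, whereas those of miR-122 were far above it. The offset therefore pulls the changes of the dim probes towards 0 more than that of miR-122. The share of this in the differences was not tested.

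Markers of other liver cells that passed the test were higher in MCD. Of 7 mesenchymal probes 6 were higher, of 5 biliary epithelium probes 3 were higher, of 8 leukocyte probes 4 were higher and of 2 endothelium probes 1 was higher, with 0 lower in each list. Among all tested probes 5.76% were higher and 4.46% lower. The summed level was 12.26 to 12.77 in MCD and 11.50 to 11.63 in control for the mesenchymal list, and 10.27 to 11.42 in MCD and 9.16 to 9.31 in control for the biliary list (log2). It was 10.56 to 10.98 in MCD and 10.39 to 10.78 in control for leukocytes, and 12.05 to 12.55 in MCD and 11.57 to 11.75 in control for endothelium. The endothelium sum is mostly miR-126-3p (change 0.67), whereas miR-126-5p was at 0.09 and did not pass. The rise of the biliary sum is mostly that of miR-200a and miR-200b (changes 2.34 and 2.17), and the remaining call was miR-429 (1.00). In that list miR-200c (0.32) and miR-141 (0.35) did not pass. Of the 3 red blood cell and 3 muscle probes, limma called 0. With blank subtraction the counts were 4 for the mesenchymal, 0 for the leukocyte and 0 for the endothelium list, and the leukocyte count was 1 to 4 with 1 array left out. The part of such shifts in the fall of the 3 guides was not tested.

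The chromosome 16 cluster is best known from brown adipocytes, so the miRNAs described as acting in mouse brown or beige adipocytes were set beside it. Of 19 such probes, 5 were lower and 3 higher in MCD liver and 11 did not pass, with a median change of 0.00. Over all tested probes 4.46% were lower and 5.76% higher. Besides miR-193b and miR-365 the lower ones were miR-203 (-0.75 ± 0.12), miR-378 (-0.73 ± 0.10) and miR-455 (-0.39 ± 0.10). The higher ones were miR-27a (0.83 ± 0.10), miR-34a (0.68 ± 0.09) and miR-106b (0.58 ± 0.11), each described in mice as a brake on the brown or beige programme (log2, SE). Other miRNAs of the list described as brakes did not pass, with changes of 0.36 for miR-27b, 0.13 for miR-155, 0.11 for miR-93, 0.00 for miR-133b and -0.09 for miR-133a. The rest of the list did not pass either and went both ways. The changes were 0.49 for miR-182 (limma adjusted p = 0.0582), 0.20 for miR-26a and 0.16 for miR-30b. They were -0.07 for miR-196a, -0.26 for miR-328 and -0.30 for miR-30c. The count of lower probes was 3 in 6 other settings and without MCD 1 or 2 or control 1 or 3, and that of higher probes was 5 without MCD 4. The call of miR-455 ended in 6 of 19 other settings and in 5 of the 8 fits that left out 1 array. The list was drawn up with changes of these samples known, so its counts are a description.

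**Figure D4:**
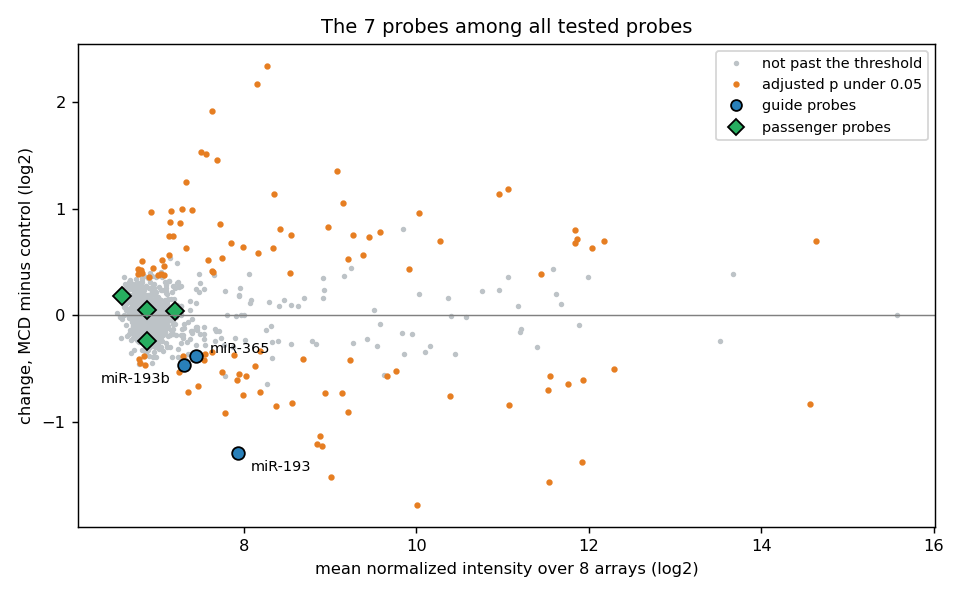
Change (MCD minus control, log2) against the mean normalized intensity (log2) for the 1076 tested probes, with the 3 guide and 4 passenger probes of the clusters marked. miR-193 at -1.29 lies above only 4 of the tested probes, miR-193b and miR-365 lie at the edge of the dim probes, and the passengers lie among them.

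The probes whose normalized pattern over the 8 arrays was most like that of miR-193 were miR-2137 (r = 0.991), miR-101b (0.984), miR-3077* (0.982), miR-5132 (0.980) and miR-2861 (0.978), all lower in MCD. For miR-193b they were miR-1893, miR-128-2*, miR-326*, miR-669c* and miR-2137 (0.948 to 0.951), and for miR-365 they were miR-3074-5p (0.965), miR-92a-2*, miR-30e*, miR-682 and miR-345-5p (0.903 to 0.940). These correlations across arrays include the difference between the diets, which the arrays share. The guides correlated with each other over the 8 arrays at r = 0.947 for miR-193 and miR-193b, 0.895 for miR-193b and miR-365 and 0.807 for miR-193 and miR-365. With the diet means removed the values were 0.184, 0.570 and -0.466, from 4 arrays per diet, and they are given as a description without a test. With the diet means removed, the closest probes were miR-421* (0.944), miR-743a, miR-704, miR-1970 and miR-690 for miR-193, miR-3083* (0.959), miR-669i, miR-500*, miR-200a* and miR-376c* for miR-193b, and miR-467h (0.971), miR-124, miR-744*, miR-3074-5p and miR-145* for miR-365. miR-3074-5p was among the 5 closest to miR-365 both with (0.965) and without (0.928) the diet means. Both values come from the same 8 arrays and are not separate observations. All these probes were picked as the highest among the tested probes, so their high correlations partly follow from that choice.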

How the data were processed

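Total RNA of 4 MCD and 4 control livers was hybridised by the authors to a mouse miRNA oligo chip in 1 colour and read with the chip maker's scanner. The deposited files hold an uncorrected intensity, the median of each spot's pixels, and a local background intensity, for 3136 spots, of which 1818 were blank. A deposited table of processed intensity values served as an alternative. Labels name the red dye and the scanner columns the wavelength of the green one, which the sources do not settle.

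Intensities were corrected with normexp (offset 50) after subtraction of local background in limma 3.58.1 (R 4.3.3), converted to log2 and brought to common quantiles across the 1135 miRNA probes. The 1076 probes that exceeded the blank limit (mean and 2 SD of blanks) on 4 or more arrays were tested with lmFit and eBayes, without a block, and Benjamini-Hochberg adjustment. Ratios within arrays were compared with exact permutation tests; the pairs with miR-122 were added after the data were seen. The number of arrays limits precision. The fit was tested on simulated data. Listed miRNAs were matched by name, through shared probes (miR-199a-3p, miR-486) and an older name (miR-21) too. Mature names were assigned through RefSeq synonyms, the unstarred name standing for the 3p arm.

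The members, lists and the rule for named miRNAs (all members, the 5 probes most like each guide with and without the diet means, miR-122, miR-192 and miR-194 as liver markers, and brown adipocyte miRNAs past the threshold) were chosen with earlier results of these data known. Alternatives covered background, scaling, filter, test, the authors' values, the replicate number as a block and each array left out.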

Additional observations from a re-analysis of the deposited data

How the results depend on the processing

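The falls of miR-193 and miR-193b kept their direction and call in all 19 other settings, at -1.99 to -0.83 and -1.02 to -0.27 on the log2 scale, and with any 1 array left out, at -1.34 to -1.26 and -0.52 to -0.43. miR-365 stayed lower throughout, but missed the threshold with blank subtraction (-0.77), a normexp offset of 10 (-0.51), global median (-0.30) or 75th percentile scaling (-0.31), cyclic loess (-0.35), no scaling (-0.33), the methods' t-test after adjustment (-0.39) and the authors' processed values (-0.72), and its range with 1 array left out was -0.46 to -0.31. The cause was not tested. Scaling by spike controls turned miR-193* to -0.05, miR-193b* to -0.19 and miR-365-1* to -0.22, and 1 array left out gave -0.01 to 0.09 for miR-193b* and -0.06 to 0.07 for miR-365-1*.

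Of the differences within arrays, blank subtraction gave -0.97 for miR-193 against miR-193b, -1.22 against miR-365, -2.13 against miR-193* and -1.16 against miR-122. It gave -1.25 for miR-193b against miR-193b*, -0.85 for miR-365 against miR-365-1*, 0.79 against miR-365-2*, -0.18 for miR-193b against miR-122 and 0.06 for miR-365 against miR-122, and none of these 9 had an adjusted p past the threshold. The authors' values gave -0.93 and -1.16 for miR-193 against miR-193b and miR-365, -1.20 for miR-193b against miR-193b* and -0.76 for miR-365 against miR-365-1*. Against miR-122 they gave -0.69 for miR-193, 0.24 for miR-193b and 0.46 for miR-365. None of these values had an adjusted p past the threshold. An offset of 10 gave -0.73 (past it) for miR-193, 0.20 for miR-193b and 0.33 for miR-365 against miR-122, and plain local background subtraction gave 0.34 for miR-193b. An adjusted p here also depends on how many of the other pairs reach the smallest p of the exact test. With 1 array left out the ranges were -0.85 to -0.78 (miR-193 against miR-193b), -0.99 to -0.83 (against miR-365), -1.63 to -1.36 (against miR-193*), -0.58 to -0.42 (miR-193b against miR-193b*), -0.50 to -0.36 (miR-365 against miR-365-1*), and, against miR-122, -0.62 to -0.33 for miR-193 (past the threshold without MCD 1), 0.23 to 0.49 for miR-193b and 0.37 to 0.56 for miR-365.

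Counts of calls moved too. Lower hepatocyte probes, 6 at first, numbered 1 with blank subtraction, 3 with the offset of 10 and with the adjusted t-test, and 3 to 6 with 1 array left out. Higher leukocyte probes numbered 0 with blank subtraction, 1 with spike scaling, 2 with the adjusted t-test and 1 to 4 with 1 array left out. The higher endothelium probe was lost (0) with blank subtraction, global median, spike scaling, the adjusted t-test and the authors' values. Lower brown adipocyte probes numbered 3 with blank subtraction, global median, 75th percentile, cyclic loess, no scaling and the adjusted t-test, and 3 to 5 with 1 array left out, and higher ones 5 with the replicate block and 3 to 5 with 1 array left out. Over all tested probes 29 were higher and 15 lower with blank subtraction, 65 and 30 with global median, 64 and 31 with 75th percentile, 55 and 33 without scaling, 34 and 93 with spike scaling, 123 and 94 with the methods' t-test unadjusted and 37 and 24 adjusted, and with 1 array left out 44 to 69 were higher and 27 to 48 lower.

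Arrays with the same replicate number deviated together only weakly (r = 0.0756, 0.0953, -0.00685 and 0.0636), so the numbers were not taken to pair the samples. MCD arrays 1 to 4 correlated with control arrays of other numbers at no more than 0.0789, 0.00791, 0.0417 and -0.0139. The same number was thus the closest for replicates 2 and 4, but not for 1 and 3. The replicate block gave 67 higher and 51 lower probes, with miR-193 at -1.29, miR-193b at -0.47 and miR-365 at -0.39, and changed no member's call. A slide or scan block was not run, since no slide was labelled. Each array position held 1 diet, so position could not serve as a block. Whether slides held 1 array of each diet is not known. The exact permutation tests took the arrays as unpaired, and no paired form of them was run. Signal over background limits all members but miR-193 in control: the MCD spots of miR-193b and miR-365 and most passenger spots lay near or below the negative control limit, and some passenger spots below the blank limit.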
